A study of Mus musculus with 6 samples.

Results

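The genes described are 10 genes of the ATF4 stress response and of serine synthesis, among 19505 genes measured in mouse small intestinal crypts. They were taken by symbol from a list that was chosen with earlier results of these data known. Phgdh, Psat1 and Psph stand for serine synthesis, and Shmt2 and Mthfd2 for mitochondrial folate metabolism. The others are Atf4 and its stress targets Asns, Chac1, Ddit3 and Trib3. All 10 were on the array. Crypt RNA came from 3 CSN8ΔIEC and 3 CSN8fl/fl samples on a C57bl/6 background, and the study set out to test if CSN8 deficiency disturbs the gut flora through antimicrobial peptide production. The COP9 signalosome trims NEDD8 from cullin ubiquitin ligases, and its CSN8 subunit is the product of Cops8. The name CSN8fl/fl was read as this gene carrying loxP sites, and CSN8ΔIEC as its deletion in intestinal epithelial cells. The sources used here name no promoter for Cre, and no Cre for CSN8fl/fl. In both genotypes the labels give replicate 3 as male and 10 weeks old, and the other replicates as female and 16 weeks old. The labels call the samples biological replicates without naming separate mice, so p-values cover only the spread among these samples, which could be partly technical.

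ATF4 is a transcription factor whose protein is made mainly when the initiation factor eIF2 is phosphorylated by a stress-sensing kinase, an arrangement called the integrated stress response. Because that control acts on translation, the level of Atf4 RNA is not a measure of ATF4 protein. ATF4 binds C/EBP-ATF response elements and switches on genes that make or import amino acids, charge tRNAs and, under lasting stress, favour cell death. Serine made from the glycolytic intermediate 3-phosphoglycerate feeds mitochondrial folate enzymes, which supply carbon units for nucleotide synthesis in dividing cells such as those of the crypt.

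The letters TGATGNAA, the core of the C/EBP-ATF response element, were searched on both strands of promoter sequences of RefSeq (GRCm38.p6, from 250 bases before to 50 after the start site). They are shown because binding of this element by ATF4 is what groups the targets. All 10 genes had a promoter in that table, Psat1 with more than 1 (11 promoters in all), and 3 genes held a match: Asns, Chac1 and Trib3. Over all 32851 promoters, 3.97% held one. In the 30-base windows below, read in the direction of the gene, the match is in capitals.
Asns, chr6:7693214-7693243, minus strand: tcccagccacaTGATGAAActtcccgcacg
Trib3, chr2:152344028-152344057, minus strand: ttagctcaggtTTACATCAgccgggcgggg
Chac1, chr2:119351038-119351067, plus strand: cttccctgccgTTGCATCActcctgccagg

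The Asns match begins 23 bases before the start site and the Chac1 match 193 bases before it, while that of Trib3 begins 14 bases after it. In Chac1 and Trib3 the letters lie on the opposite strand. The 2 genes with the widest ranges of signal over the 6 libraries were Chac1 and Phgdh, and their 250 bases upstream of the start site follow, with matches in capitals. For Phgdh the capitals mark TGACNNNGC, the core letters of the antioxidant response element bound by NRF2, on the opposite strand. This search was chosen with earlier results of these data known. These letters were in 12.4% of all promoters and in those of Phgdh, Psph and Asns among the 10 genes. The ER stress response element, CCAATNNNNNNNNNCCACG, was in 0.119% of all promoters and in none of these 10. A match is a description of the letters and not of binding.
Chac1, chr2:119350992-119351241, plus strand: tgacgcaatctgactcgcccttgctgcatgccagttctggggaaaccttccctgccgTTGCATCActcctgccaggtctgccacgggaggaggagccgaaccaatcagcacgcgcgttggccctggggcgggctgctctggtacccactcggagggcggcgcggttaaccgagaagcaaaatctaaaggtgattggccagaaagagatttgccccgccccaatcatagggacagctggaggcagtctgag
Phgdh, chr3:98339970-98340219, minus strand: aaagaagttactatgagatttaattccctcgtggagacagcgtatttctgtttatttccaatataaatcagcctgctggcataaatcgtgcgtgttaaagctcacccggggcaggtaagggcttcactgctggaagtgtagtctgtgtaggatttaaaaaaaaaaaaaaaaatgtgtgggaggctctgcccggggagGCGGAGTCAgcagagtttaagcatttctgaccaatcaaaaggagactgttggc

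Signals are log2 values of probe sets, and precision is limited by the number of arrays. Cops8 was at 7.68, 7.61 and 7.77 in CSN8ΔIEC against 8.26, 8.22 and 8.10 in CSN8fl/fl (adjusted p = 0.0865), and the sources used here do not say whether its probes lie in the deleted part. Crypt markers had signals in both genotypes: Lgr5 of stem cells was at 8.28 to 8.47 in CSN8ΔIEC and at 8.05 to 8.63 in CSN8fl/fl, and Mki67 of dividing cells at 11.89 to 11.92 and 10.81 to 11.63. Of the 6 stem cell markers measured, 5 had a higher mean in CSN8ΔIEC, against 9396 of all 19505 genes, and Lgr5 was not among them. Their median difference was 0.40, and 0.21 without CSN8fl/fl replicate 3. The enterocyte gene Sis was measured too, at 12.94 to 13.21 in CSN8ΔIEC and 13.05 to 13.53 in CSN8fl/fl. Among the 11 enterocyte markers measured, 9 had a lower mean in CSN8ΔIEC and 2 a higher one, where 10109 of all 19505 genes were lower. The median difference of these 11 was −0.13, and 0.015 without CSN8fl/fl replicate 3. The largest was that of Alpi, −1.08 (limma adjusted p = 0.0681). CSN8fl/fl replicate 3 was the library least like the rest, with a mean correlation of 0.981 with the other 5 against 0.987 to 0.989 for those. Its 16 proliferation genes summed to 10646 on the linear scale, against 17349 and 17071 in CSN8fl/fl replicates 1 and 2, and its 9 tuft cell markers to 6163 against 2058 and 2305. It is the only CSN8fl/fl library labelled male and of 10 weeks, so labelled sex, age and the library cannot be told apart, and each member is also given without it.

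None of the 10 genes passed the threshold between genotypes (limma, Benjamini-Hochberg adjusted p under 0.05 over all 19505 genes), where 1.08% of all genes did. At an unadjusted p under 0.05 there were 3 of the 10, with Phgdh and Shmt2 higher and Ddit3 lower in CSN8ΔIEC, against 15% of all genes. In the same 3 genes the CSN8ΔIEC and CSN8fl/fl values did not overlap, which held for 22.4% of all genes. The differences were above 0 for 5 genes and below 0 for 5, with a median of −0.017 against −0.011 over all genes. Without CSN8fl/fl replicate 3 again none passed, where 151 of all 19505 genes did. The median of the 10 was then 0.13, against −0.011 over all genes. The 3 genes with an unadjusted p under 0.05 were then Phgdh, Shmt2 and Asns, all higher, and no longer Ddit3. The share of all genes at that p was not counted without this library, so these 3 have no background beside them.

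**Figure D1:**
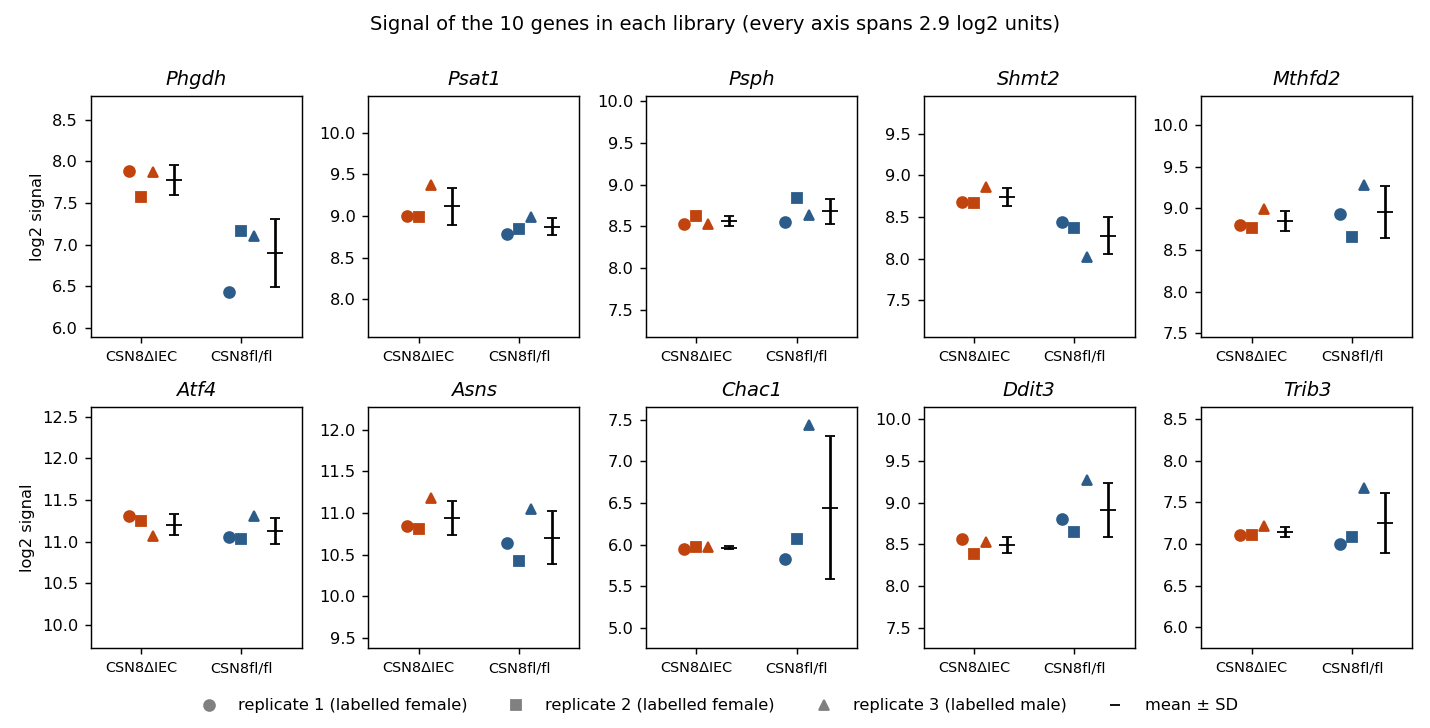
Log2 signal of the 10 genes in every library, CSN8ΔIEC on the left and CSN8fl/fl on the right of each panel, with the mean ± SD (n = 3) beside the points and an equal span on every vertical axis. The Phgdh and Shmt2 points of CSN8ΔIEC all lie above those of CSN8fl/fl and the Ddit3 points all below, while Chac1 and Trib3 have 1 high CSN8fl/fl point, replicate 3.

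Phgdh, the dehydrogenase that commits 3-phosphoglycerate to serine, had the largest difference of the 10. Its signal was 7.88, 7.57 and 7.87 in CSN8ΔIEC replicates 1 to 3, against 6.43, 7.17 and 7.11 in CSN8fl/fl. Every CSN8ΔIEC library was above every CSN8fl/fl library, and the lowest of the 6 was CSN8fl/fl replicate 1. The means were 7.78 ± 0.18 and 6.90 ± 0.41 (SD, n = 3 each). The difference of 0.87 ± 0.20 (SE; 95% interval 0.42 to 1.33), or 1.83-fold, did not pass over all genes (limma adjusted p = 0.0918). The difference was 0.64 without CSN8fl/fl replicate 1 and 0.98 without replicate 3. It was 0.93 between the labelled females and 0.77 between the labelled males. The adjusted p ranged from 0.0551 with array weights to 0.306 without CSN8ΔIEC replicate 1.

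The next enzymes of the pathway were closer between genotypes. Psat1, the aminotransferase of the second step, was at 9.0, 8.98 and 9.37 in CSN8ΔIEC, against 8.79, 8.84 and 8.99 in CSN8fl/fl. The groups overlapped narrowly, with CSN8ΔIEC above CSN8fl/fl in 8 of the 9 pairings of libraries. Replicate 3 was the highest of its genotype in both. The difference was 0.25 ± 0.14 (95% interval −0.076 to 0.57, limma adjusted p = 0.457), and 0.31 without CSN8fl/fl replicate 3. Psph, the phosphatase that releases serine, was at 8.53, 8.63 and 8.53 in CSN8ΔIEC, against 8.55, 8.84 and 8.64 in CSN8fl/fl. Its groups overlapped, and the difference of −0.12 ± 0.12 (95% interval −0.40 to 0.16, limma adjusted p = 0.689) was within the spread of the CSN8fl/fl libraries. The interval leaves room for a change of either sign, and the value was −0.14 without CSN8fl/fl replicate 3.

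Shmt2, the mitochondrial enzyme that splits serine into glycine and a folate-bound carbon unit, was higher in every CSN8ΔIEC library. Its signal was 8.68, 8.67 and 8.86 in CSN8ΔIEC, against 8.44, 8.36 and 8.02 in CSN8fl/fl. The lowest value was that of CSN8fl/fl replicate 3. The difference of 0.46 ± 0.14 (95% interval 0.14 to 0.79), or 1.38-fold, did not pass (limma adjusted p = 0.184). It was 0.34 without that library (adjusted p = 0.292), 0.27 between the labelled females and 0.84 between the labelled males. Mthfd2, the next mitochondrial folate enzyme, gave another order of libraries. It was at 8.79, 8.76 and 8.99 in CSN8ΔIEC, against 8.93, 8.66 and 9.28 in CSN8fl/fl, so that the groups overlapped and replicate 3 was highest in each. The difference was −0.11 ± 0.17 (95% interval −0.49 to 0.27, limma adjusted p = 0.805), and it was 0.057 without CSN8fl/fl replicate 3.

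As for Shmt2, the summed signal of the proliferation genes was higher in every CSN8ΔIEC library and lowest in CSN8fl/fl replicate 3. For Phgdh the lowest library was CSN8fl/fl replicate 1. The summed linear signal of the proliferation genes was 20146 to 20593 in CSN8ΔIEC, against 10646 to 17349 in CSN8fl/fl. None of the 16 passed the threshold. All 16 differences were above 0, against 9396 of 19505 over all genes, with a median of 0.45 (0.22 without CSN8fl/fl replicate 3). In bulk crypt RNA the number of cells of a type and the RNA per cell cannot be told apart, and the part of these genes' cells in the Shmt2 and Phgdh values was not tested.

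Atf4 itself differed little. It was at 11.31, 11.24 and 11.06 in CSN8ΔIEC, against 11.06, 11.03 and 11.31 in CSN8fl/fl. The highest values of the genotypes were close together, and the highest of CSN8fl/fl was again replicate 3. The means were 11.20 ± 0.13 and 11.13 ± 0.15 (SD, n = 3 each), and the difference was 0.072 ± 0.13 (95% interval −0.23 to 0.37, limma adjusted p = 0.831), or 0.16 without that library. The difference was 0.23 between the labelled females and −0.25 between the labelled males, and the interaction of genotype with labelled sex and age did not pass (−0.48 ± 0.22, limma adjusted p = 0.518).

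Asns, which makes asparagine and responds to amino acid shortage, was at 10.84, 10.81 and 11.18 in CSN8ΔIEC, against 10.64, 10.42 and 11.05 in CSN8fl/fl. CSN8ΔIEC was above CSN8fl/fl in 7 of 9 pairings, and replicate 3 was the highest library in both genotypes. The difference was 0.24 ± 0.18 (95% interval −0.17 to 0.65, limma adjusted p = 0.565), or 0.41 without CSN8fl/fl replicate 3. In a model with genotype and labelled sex and age, Asns was 0.43 higher in the labelled males, which did not pass either (limma adjusted p = 0.778).

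The 3 targets tied to lasting stress behaved alike in 1 library. Chac1, a γ-glutamylcyclotransferase that degrades glutathione, was at 5.95, 5.97 and 5.98 in CSN8ΔIEC, against 5.83, 6.07 and 7.43 in CSN8fl/fl. Its mean over the 6 libraries, 6.21, was below the median of probe set means, 6.74, while the other 9 members were above it. The CSN8ΔIEC values were nearly equal, and CSN8fl/fl replicate 3 was 1.48 above the mean of the other CSN8fl/fl libraries. The difference was −0.48 ± 0.35 (95% interval −1.28 to 0.32, limma adjusted p = 0.556), and 0.012 without that library (adjusted p = 0.978). It was 0.0053 between the labelled females and −1.46 between the labelled males. The interaction term of Chac1 was −1.46 ± 0.25 and did not pass over all genes (limma adjusted p = 0.345), as for 0 of 19505 genes, of which 1974 had an unadjusted p under 0.05. Each genotype has 1 labelled male, so the residual spread of the gene in this model comes from the labelled females alone. In limma the standard error of the term also draws on the spread of all genes.

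Trib3, a pseudokinase that restrains AKT and CHOP signalling, was at 7.10, 7.11 and 7.22 in CSN8ΔIEC, against 7.0, 7.09 and 7.67 in CSN8fl/fl. As with Chac1, CSN8fl/fl replicate 3 was highest of the 6 and the others lay close together. The difference was −0.11 ± 0.18 (95% interval −0.51 to 0.30, limma adjusted p = 0.815), and 0.10 without that library. Ddit3 encodes CHOP, a transcription factor that promotes death under unresolved ER stress. It was at 8.56, 8.38 and 8.53 in CSN8ΔIEC, against 8.81, 8.65 and 9.28 in CSN8fl/fl. Unlike in Chac1 and Trib3, all CSN8ΔIEC values were below all CSN8fl/fl values. The difference of −0.42 ± 0.17 (95% interval −0.81 to −0.038), or 1.34-fold lower, did not pass (limma adjusted p = 0.289). It was −0.24 without CSN8fl/fl replicate 3 (adjusted p = 0.461). A further Ddit3 probe set gave 7.41, 7.66 and 7.37 in CSN8ΔIEC, against 7.65, 7.56 and 7.97 in CSN8fl/fl, so that the groups overlapped there, with a difference of −0.25 ± 0.15.

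**Figure D2:**
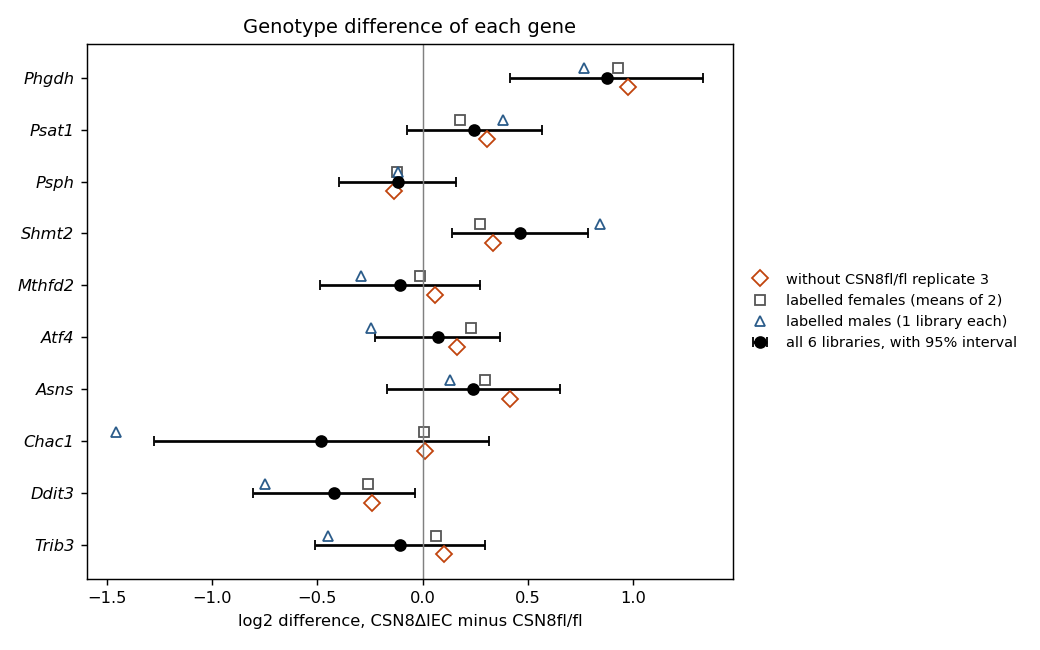
Log2 difference of each gene, CSN8ΔIEC minus CSN8fl/fl, with its 95% interval from limma (filled circles), beside the difference without CSN8fl/fl replicate 3 and the differences between labelled females and between labelled males. The intervals of Phgdh, Shmt2 and Ddit3 leave out 0, and for Chac1 the value moves from −0.48 to 0.012 once that library is left out.

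The library of CSN8fl/fl replicate 3 had the highest signal of the 6 for 5 of the 10 genes (Mthfd2, Atf4, Chac1, Ddit3 and Trib3) and the lowest for Shmt2. Over all genes it was highest in 23.8% and lowest in 25.7%. It lay 0.47 above the gene means as a median over Atf4, Asns, Chac1, Ddit3 and Trib3, where the other 5 libraries lay between −0.18 and −0.088. The SD was larger in CSN8fl/fl than in CSN8ΔIEC for 9 of the 10 genes, against 62.3% of all genes, and Psat1 was the exception. In the same library the tuft cell markers were at 1.69 above their means as a median, against −0.89 to −0.82 in CSN8ΔIEC and 0.33 and 0.53 in CSN8fl/fl replicates 1 and 2. Of these 9 tuft markers 4 fell in CSN8ΔIEC, 5 without CSN8fl/fl replicate 3 and 0 to 5 without any 1 library. The summed signal of 9 T cell and intraepithelial lymphocyte markers was 2684 to 3645 in CSN8ΔIEC and 3490, 3109 and 5005 in CSN8fl/fl, with none of the 9 past the threshold. The part of these cells in the stress gene values was not tested.

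**Figure D3:**
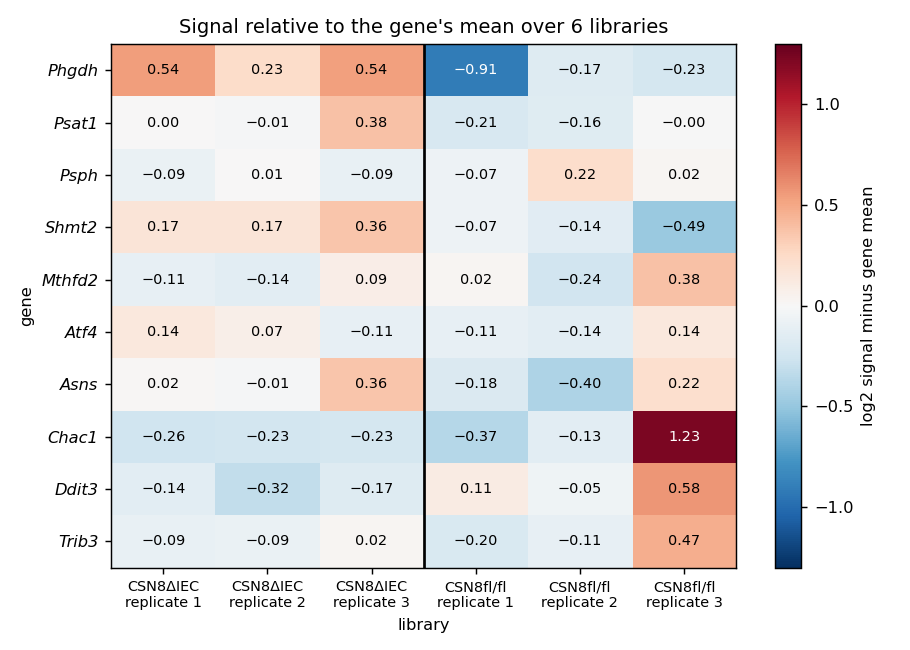
Log2 signal of each gene in each library minus the mean of that gene over the 6 libraries, with CSN8ΔIEC left of the black line and CSN8fl/fl right of it. The column of CSN8fl/fl replicate 3 holds the highest values for Chac1 (1.23), Ddit3 (0.58) and Trib3 (0.47) and the lowest for Shmt2 (−0.49).

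The remaining pathway was read from 6 lists with 95 genes measured of 105 listed; the others were not analysed here. Of the 95, 0 rose and 2 fell in CSN8ΔIEC (limma, adjusted p under 0.05 over all genes), where 0.374% of all genes rose and 0.702% fell. The 2 were Nupr1 and Ggh. At an unadjusted p under 0.05, 11 were higher and 10 lower, against 6.95% and 8.01% of all genes. The median over the 95 was 0.13, and 0.11 without CSN8fl/fl replicate 3.

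The list of sensors and regulators of eIF2 had 13 genes measured, 0 past the threshold and a median of −0.0074 (−0.053 without CSN8fl/fl replicate 3). The ER stress kinase gene Eif2ak3 (PERK) and the amino acid sensor Eif2ak4 (GCN2) differed by −0.046 and −0.040 (limma adjusted p = 0.895 and 0.921). These were chosen after their values were seen. Eif2ak1, the haem-regulated kinase, was at 9.49, 9.63 and 9.69 in CSN8ΔIEC, against 9.75, 9.95 and 10.04 in CSN8fl/fl, without overlap (difference −0.31 ± 0.13, limma adjusted p = 0.296). Subunits of eIF2B, the exchange factor that phosphorylated eIF2 inhibits, did not pass: the differences were 0.60 ± 0.16 for Eif2b1 (limma adjusted p = 0.129), 0.61 for Eif2b3, 0.19 for Eif2b4, 0.19 for Eif2b2 and −0.0074 for Eif2b5. Eif2b2 and Eif2b5 were also chosen after their values were seen. Eif2b1 was at 9.32, 9.13 and 9.22 in CSN8ΔIEC, against 8.78, 8.82 and 8.30 in CSN8fl/fl, so that every CSN8ΔIEC library was higher.

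Of 18 ATF4 partners and other stress targets, 0 rose and 1, Nupr1, fell, and the median was −0.040 (−0.020 without CSN8fl/fl replicate 3). Nupr1 encodes a small chromatin-associated stress protein. It was at 8.32, 7.79 and 9.05 in CSN8ΔIEC, against 10.61, 10.48 and 10.72 in CSN8fl/fl. The groups were far apart, and the CSN8fl/fl libraries were tight. The difference of −2.22 ± 0.27, or 4.65-fold lower, passed (limma adjusted p = 0.00996), and did not without CSN8ΔIEC replicate 1 (adjusted p = 0.0535). Without CSN8fl/fl replicate 3 it was −2.16 (adjusted p = 0.0348). Paneth cell markers were lower as well: 5 of 12 fell and 0 rose, and their summed signal was 36143 to 70847 in CSN8ΔIEC against 108251 to 113393 in CSN8fl/fl. Their part in the Nupr1 value was not tested. Without CSN8fl/fl replicate 3, 3 of the 12 fell, and 2 to 7 without any 1 library. Other members that did not pass included the transsulfuration genes Cbs (−0.52 ± 0.17, adjusted p = 0.196) and Cth (−0.26, adjusted p = 0.369), and the alanine aminotransferase Gpt2 (−0.47 ± 0.15, adjusted p = 0.202). In all 3, named for their small p-values, every CSN8ΔIEC value was below every CSN8fl/fl value. This held for 5 of the 18 genes of the list and for 11.7% of all genes.

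Of 9 amino acid transporters none passed, and the median was 0.19 (0.29 without CSN8fl/fl replicate 3). The neutral amino acid transporter Slc43a1 was at 6.98, 7.28 and 7.14 in CSN8ΔIEC, against 6.83, 6.21 and 6.61 in CSN8fl/fl, a difference of 0.58 ± 0.17 (limma adjusted p = 0.162). Slc7a5, the large neutral amino acid carrier, differed by 0.41 ± 0.18, Slc1a5, the glutamine transporter, by 0.31 and the cationic carrier Slc7a1 by 0.19 (adjusted p = 0.336, 0.424 and 0.491).

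The cytosolic aminoacyl-tRNA synthetases, which load amino acids onto tRNAs, had 18 genes measured, and all 18 differences were above 0, from 0.093 to 0.55. Over all genes 9396 of 19505 differences were above 0. None of the 18 passed the threshold, and 5 were higher at an unadjusted p under 0.05, against 6.95% of all genes. The median was 0.23 against −0.011 over all genes (0.20 without CSN8fl/fl replicate 3). In 9 of the 18 every CSN8ΔIEC value was above every CSN8fl/fl value, against 10.7% of all genes. Gars was at 10.62, 10.72 and 10.76 in CSN8ΔIEC, against 10.41, 10.42 and 10.36 in CSN8fl/fl (difference 0.30 ± 0.11, limma adjusted p = 0.253). Hars, Vars and Rars differed by 0.35 ± 0.13, 0.55 ± 0.22 and 0.28 ± 0.12 (adjusted p = 0.242, 0.284 and 0.297). Without CSN8fl/fl replicate 3 the Vars difference was 0.28. Genes of 1 pathway are not independent measurements, and the proliferation genes above lay in the same direction.

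Of 23 other folate and methionine cycle genes, 0 rose and 1, Ggh, fell, with a median of 0.15 (0.11 without CSN8fl/fl replicate 3, where 0 passed). Ggh, the γ-glutamyl hydrolase that trims polyglutamate from stored folates, was at 6.97, 7.15 and 7.60 in CSN8ΔIEC, against 8.27, 8.44 and 8.30 in CSN8fl/fl. The groups did not overlap. The difference was −1.10 ± 0.17, or 2.14-fold lower (limma adjusted p = 0.0224). It did not pass without CSN8ΔIEC replicate 1 or 2 or CSN8fl/fl replicate 2 or 3 in turn (adjusted p up to 0.099), and the difference was −1.11 without CSN8fl/fl replicate 3. Mtr, methionine synthase, was at 7.92, 8.03 and 8.18 in CSN8ΔIEC, against 7.67, 7.26 and 7.22 in CSN8fl/fl (difference 0.66 ± 0.15, limma adjusted p = 0.0918), and passed without CSN8fl/fl replicate 1 (adjusted p = 0.0434). Shmt1, the cytosolic counterpart of Shmt2, was at 9.31, 9.11 and 9.52 in CSN8ΔIEC, against 8.85, 8.92 and 8.54 in CSN8fl/fl, a difference of 0.54 ± 0.15 (limma adjusted p = 0.153). As for Shmt2, all CSN8ΔIEC values lay above and CSN8fl/fl replicate 3 was lowest. Amt, of the glycine cleavage system, differed by −0.64 ± 0.15 (limma adjusted p = 0.0963).

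Of 14 genes of the other arms of the unfolded protein response none passed, and the median was 0.067 (0.00085 without CSN8fl/fl replicate 3). Dnajb9, an ER co-chaperone, was at 9.40, 9.33 and 8.88 in CSN8ΔIEC, against 10.03, 9.43 and 10.35 in CSN8fl/fl (difference −0.74 ± 0.24, limma adjusted p = 0.197), with CSN8fl/fl replicate 3 the highest, as for Ddit3. The list as a whole did not share this order. As a median over the 14 genes, that library lay at −0.11 from the gene means, against −0.12 to 0.20 in the others. Ern2, the epithelial IRE1β, and Edem1, of ER-associated degradation, differed by −0.47 ± 0.17 and −0.34 ± 0.13 (adjusted p = 0.242 and 0.264). Hspa5, the ER chaperone BiP, differed by 0.28 ± 0.13 (adjusted p = 0.374).

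**Figure D4:**
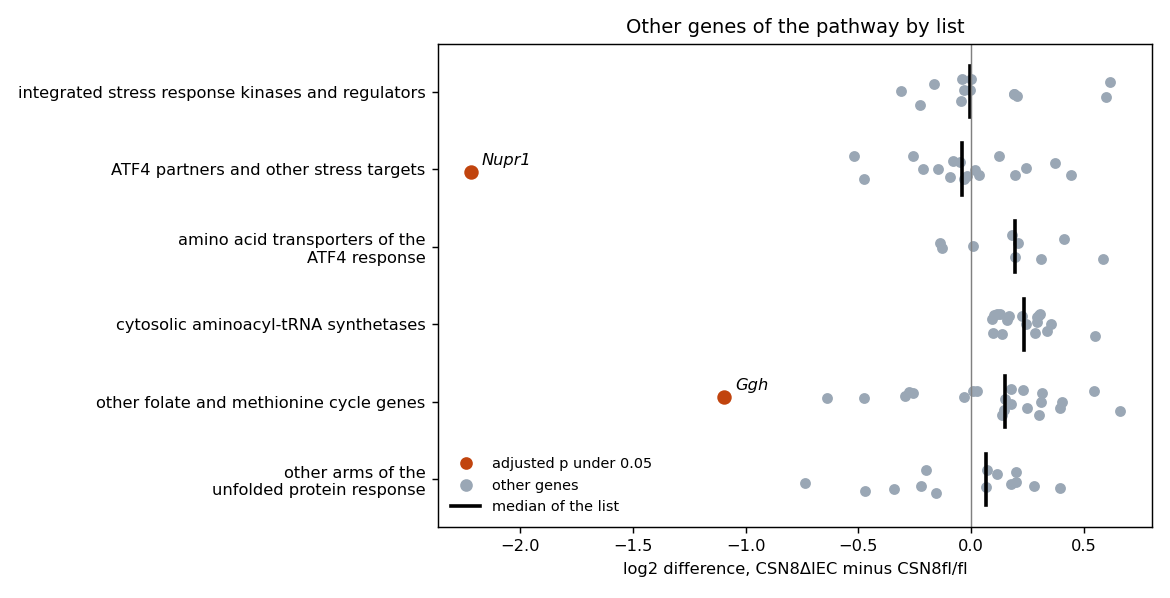
Log2 difference, CSN8ΔIEC minus CSN8fl/fl, of each gene in the 6 other pathway lists, with the median of each list as a black bar; vertical scatter within a row is arbitrary. Nupr1 (−2.22) and Ggh (−1.10) are the 2 genes past the threshold, and the 18 aminoacyl-tRNA synthetases all lie above 0.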

How the data were processed

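Total RNA of 6 crypt samples was measured on 1 Affymetrix array each. The values the authors deposited are signals per probe set on the log2 scale; RMA and Partek 6.6 are named in the submitters' processing notes, and the sources used here give neither their settings nor the genome build. Of 22206 probe sets, 19572 had 1 gene symbol from the platform annotation, 0 several and 2634 none. For the 55 genes with several probe sets the one with the highest mean was used, which left 19505 genes, named as in that annotation.

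Genotypes were compared as CSN8ΔIEC minus CSN8fl/fl with limma (version 3.58.1, R 4.3.3) by lmFit and eBayes, with 8.85 moderated residual degrees of freedom, two-sided, with p-values adjusted over all genes by Benjamini-Hochberg and a threshold of 0.05. Adjusted p-values without another name are from this fit. Further models added labelled sex and age, and their interaction with genotype. The procedure was run on simulated data, and the share of changes recovered there is not reported here. Members, lists and the promoter search were chosen with earlier results of these data known. The genes named were the members, up to 4 genes of each other pathway list by smallest p, and any further gene of these lists past the threshold. Marker lists (Paneth, tuft, goblet, enterocyte, stem, T, B, myeloid and stromal cells, proliferation and pancreatic enzymes) were described by counts and summed linear signal. Alternatives changed the filter on dim probe sets, the normalisation, the variance prior, array weights, covariates, the replicate block, the probe set rule and the libraries included.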

Additional observations from a re-analysis of the deposited data

How the results depend on the processing

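Under the 17 alternatives none of the members tested passed the threshold; Chac1 was left out by the filter at the median signal, so that 9 were tested there. Of their differences, 3 changed sign in some alternative. When 1 library was left out in turn, Mthfd2 ranged from −0.25 to 0.057, Chac1 from −0.79 to 0.012 and Trib3 from −0.23 to 0.10, the upper end each time without CSN8fl/fl replicate 3. Between the labelled females alone Chac1 was at 0.0053 and Trib3 at 0.064. The settings that changed a sign all leave out the library with the highest signal of the 3 genes. The count of 210 genes past the threshold was 97 with the labelled females only and 41 to 228 when 1 library was left out: 41, 122 and 114 without CSN8ΔIEC replicates 1, 2 and 3, and 109 without CSN8fl/fl replicate 2. With the replicate number as a block 202 genes passed, and Phgdh had an adjusted p of 0.128. Deviations of same-numbered samples correlated at 0.12, −0.024 and 0.038, so the numbers were not taken as pairs. All 10 members had a mean above the lower quartile of probe set means, 4.94. Array files here hold no detection calls, and the signal over background was not analysed.

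The other marker lists were as follows. Goblet cell markers fell in 2 of 7, where 0.702% of all genes fell, and in 0 to 1 when any 1 library was left out. Of 11 enterocyte, 6 stem cell, 6 B cell, 7 myeloid and 10 pancreatic genes 0 passed. Of 8 stromal genes 1 rose, Acta2 (limma adjusted p = 0.0366), chosen after its value was seen, where 0.374% of all genes rose. Acta2 did not pass when any 1 library was left out. Without CSN8fl/fl replicate 3, the count was 0 of 7 for goblet cell, 0 of 8 for stromal and 2 of 6 (both lower) for B cell markers.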
